A study of Mus musculus with 18 samples.

Results

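The genes described here were 39 mouse genes of the unfolded protein response and of the ATF4 program, picked by name for their known roles. Earlier results of these data were known when the genes were picked. They were matched by Ensembl identifier to 39 of the 45706 genes in each expression table. They fell into 5 roles, namely 13 ER chaperones and folding enzymes, 3 genes of ER-associated degradation, 4 genes for the stress sensors and XBP1, 10 factors and effectors of the integrated stress response, and 9 ATF4 amino acid genes. RNA-seq was performed on 18 libraries of mouse OT-I CD8+ T cells, which carry a transgenic receptor for an ovalbumin peptide, so that every cell in a culture saw the same antigen. Repeat peptide cells received 10 ng/ml peptide every day with IL-7 and IL-15, and single peptide cells received the peptide once and were then washed. From day 5 the cultures were kept for 3 days with 1 µM ibrutinib, a covalent inhibitor of the kinase BTK, or with its solvent DMSO, and repeat peptide cells stayed with the peptide during this time. There were 4 libraries of repeat peptide cells with DMSO, 5 of repeat peptide cells with ibrutinib, 5 of single peptide cells with DMSO and 4 of single peptide cells with ibrutinib. The letters A to F name the experiments as read from the labels: A to D held all 4 groups, E only repeat peptide cells with ibrutinib and F only single peptide cells with DMSO. The genotype entries, which name btk KO numbers for experiments B to E, were read as experiment names because the strain entry was WT throughout, and Btk itself had at most 27 counts in any library, too few to check them. Nothing in the labels says that the libraries of an experiment came from separate mice, so p-values measure the spread between these libraries.

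The endoplasmic reticulum (ER) folds membrane and secreted proteins, and unfolded protein there activates the sensors IRE1 (Ern1), ATF6 and PERK (Eif2ak3). IRE1 splices the Xbp1 transcript, and XBP1 and ATF6 induce chaperones and the machinery that exports misfolded protein for degradation. PERK phosphorylates the translation factor eIF2α, as do kinases that sense amino acid shortage, viral RNA or lack of heme, and this favours translation of ATF4, which induces genes for amino acid synthesis and uptake together with Ddit3 (CHOP), Atf3, Trib3 and Sesn2. In T cells, activation raises protein synthesis and the demand for amino acids, and ATF4 can therefore be induced with or without ER stress. The counts are per gene and do not separate spliced from unspliced Xbp1, and neither protein nor phosphorylation was measured.

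Total counts per library were between 23445922 and 51995372. Defining markers of CD8+ T cells summed to 2722 to 3787 TPM (the length-corrected level) in every library, while lists for B cells, macrophages and dendritic cells stayed at or below 9.18 TPM. A plasma cell list summed to 471 to 643 TPM in repeat peptide cells with DMSO and 350 to 515 TPM in single peptide cells with DMSO. Most of it came from Ighm, at 449 to 625 and 349 to 508 TPM, and the part of this list in the results was not tested. The CD4 T cell list was led by Zbtb7b and summed to 15.4 to 20.8 TPM in repeat peptide cells with DMSO against 1.87 to 11.2 TPM in single peptide cells with DMSO; its part in the results was not tested. An NK cell list, led by Klrb1c, summed to 2.64 to 11.4 TPM and 0.59 to 2.63 TPM in the same groups and reached 25.6 TPM in repeat peptide cells with ibrutinib, and its part was not tested either. Fewer cells of a kind and less RNA per cell cannot be told apart in these bulk libraries.

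The promoters were searched for short sequences known from the 2 arms, and the matches are printed here. RefSeq promoters of GRCm38.p6, from 250 bases before to 50 bases after the start site, were at hand for 36 of the 39 genes and not for Manf, Atf6 and Cth. Both strands were searched for the ER stress response element, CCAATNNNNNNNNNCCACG, bound by ATF6 with NF-Y. It occurred in 7 of the 12 chaperone promoters and in 39 of all 32851 promoters (0.119%). The matches are given 5′ to 3′ on the strand that holds the element, with the element in capitals and 12 bases on each side.
Hspa5, chr2:34772013-34772055 (+): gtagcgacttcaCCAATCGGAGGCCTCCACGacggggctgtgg
Hsp90b1, chr10:86705521-86705563 (+): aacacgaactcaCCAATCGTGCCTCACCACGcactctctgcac
Hsp90b1, chr10:86705626-86705668 (-): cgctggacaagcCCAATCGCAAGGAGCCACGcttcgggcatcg
Calr, chr8:84847063-84847105 (+): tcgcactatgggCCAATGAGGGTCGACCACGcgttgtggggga
Canx, chr11:50325788-50325830 (-): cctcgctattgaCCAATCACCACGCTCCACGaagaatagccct
Pdia6, chr12:17266479-17266521 (+): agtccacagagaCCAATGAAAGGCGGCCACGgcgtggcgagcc
Dnajc3, chr14:118937815-118937857 (+): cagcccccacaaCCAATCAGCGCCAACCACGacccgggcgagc
Creld2, chr15:88819508-88819550 (-): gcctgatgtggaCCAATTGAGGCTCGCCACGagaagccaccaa

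The related element ATTGGNCCACG, known as ERSE-II, was in 12 of all promoters (0.037%) and in those of Dnajb11 and Herpud1. The C/EBP-ATF response element, searched as TGATGNAA and known as the site of ATF4 dimers, was in 1304 promoters (3.969%), or in 4.511% of all genes. It was in 2 of the 8 amino acid genes with a promoter, in 4 of the 10 genes of the integrated stress response and in Herpud1, and in no chaperone promoter. No promoter of the amino acid or integrated stress response genes held the longer chaperone element. The shorter XBP1 element TGACGTGG, found in 222 promoters (0.676%), matched none of the 38 promoters of these 36 genes. A match is a run of letters and was not tested for binding.
Dnajb11, chr16:22857840-22857874 (+): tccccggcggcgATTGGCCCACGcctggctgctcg
Herpud1, chr8:94386365-94386399 (+): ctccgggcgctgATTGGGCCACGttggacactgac
Herpud1, chr8:94386305-94386336 (-): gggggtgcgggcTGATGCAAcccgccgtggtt
Asns, chr6:7693213-7693244 (-): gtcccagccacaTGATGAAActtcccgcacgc
Pck2, chr14:55540151-55540182 (-): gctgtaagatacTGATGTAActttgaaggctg
Atf3, chr1:191183424-191183455 (+): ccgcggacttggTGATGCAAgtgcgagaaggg
Trib3, chr2:152344027-152344058 (+): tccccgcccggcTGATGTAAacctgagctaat
Chac1, chr2:119351037-119351068 (-): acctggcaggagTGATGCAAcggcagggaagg
Nupr1, chr7:126625561-126625592 (+): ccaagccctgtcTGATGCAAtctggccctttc

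Levels between genes are compared in TPM, which corrects for transcript length. In repeat peptide cells with DMSO the ER chaperones had the highest levels, led by Calr (444 TPM), Hsp90b1 (340 TPM) and Hspa5 (327 TPM), which bind newly made protein in the ER. Among amino acid genes Phgdh, the first enzyme of serine synthesis, was at 315 TPM and Asns, which makes asparagine, at 37.0 TPM. Atf4 was at 163 TPM, whereas Cth, Nupr1 and Chac1 were at 5.2 TPM or less. These values are means over the libraries of the group, and in that of experiment D Cth was at 10.28 and Nupr1 at 8.09 TPM. The 13 chaperones together summed to 2218 ± 262 TPM (SD, n = 4) in repeat peptide cells with DMSO and 1444 ± 177 TPM (n = 5) in single peptide cells with DMSO. The 9 amino acid genes summed to 763 ± 78.6 and 434 ± 44.7 TPM in the same groups, and the 10 integrated stress response genes to 326 ± 77.6 and 190.2 ± 27.2 TPM. In the ibrutinib library of experiment E the chaperones summed to 1303 TPM, the lowest of the repeat peptide libraries. Comparisons between groups were therefore made on counts normalized for library size and composition, not on TPM.

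A gene was called changed if edgeR's quasi-likelihood test over all 12255 tested genes gave an adjusted p below 0.05, provided that its mean normalized count reached 50 and its log2 fold change exceeded 0.2 in size. Nupr1 was too low to be tested, which leaves 38 of the 39 genes. Chac1 (mean normalized count 13.5) and Cth (49.2) were tested but lay under the count minimum, so they could not be called.

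Repeat stimulation was compared with single stimulation in the DMSO cultures to ask what continued antigen did to these genes. Of the 38 tested genes 24 (63.2%) passed, 20 upward and 4 downward in the repeat peptide cells, against 47% of all genes, 22.8% higher and 24.2% lower. Every called gene moved in the same direction within each of experiments A to D. Blocking on the experiment gave 26 calls, since Atf6 (log2 fold change 0.26, adjusted p = 0.0174) and Ppp1r15a (-0.34, adjusted p = 0.0185) were added, against 53.6% of all genes. The groups did not overlap for 23 of the 38 genes, and for 41.4% of all genes tested.

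**Figure D1:**
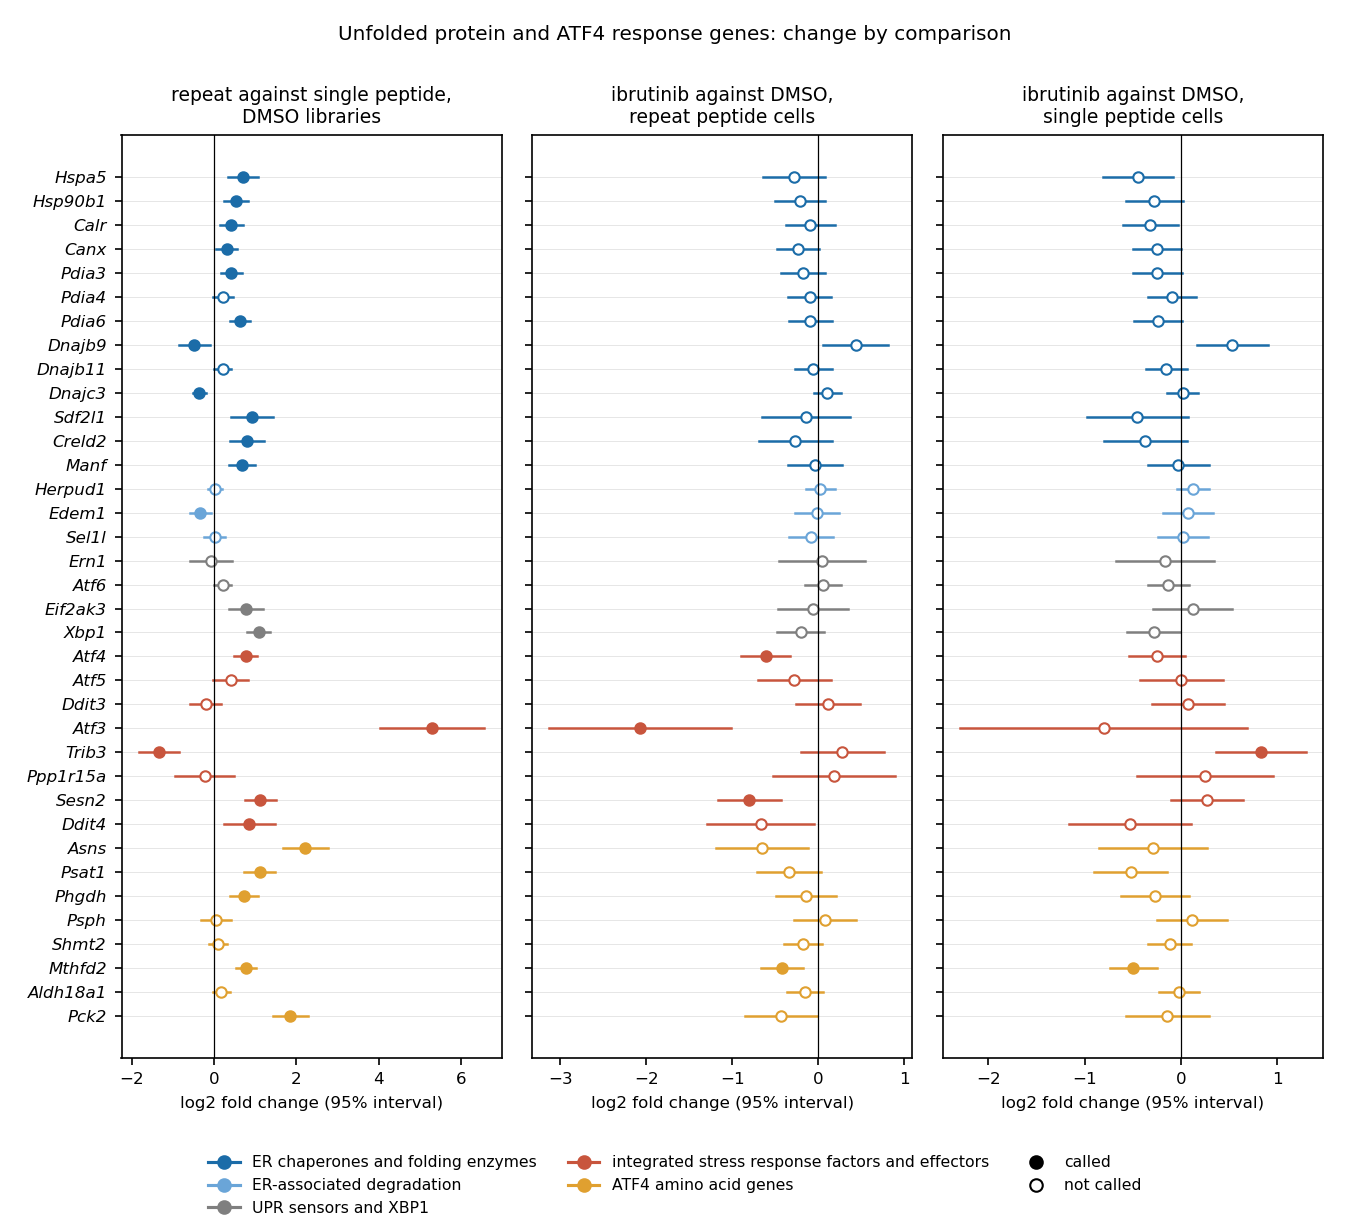
Log2 fold change (x axis) of 36 genes (y axis, coloured by role) in 3 comparisons, from edgeR with 95% intervals; filled points were called and open points were not, and Cth, Chac1 and Nupr1 are left out because they were at 3 counts or fewer in every library of at least 1 group. The x axes differ in scale. In repeat against single peptide cells 11 of 13 chaperones (9 of them filled) and all 8 amino acid genes shown (5 of them filled) lie to the right of 0, and with ibrutinib in repeat peptide cells the filled points, Atf4, Atf3, Sesn2 and Mthfd2, lie to the left.

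Among the ER chaperones 9 of 13 rose, 2 fell and 2, Pdia4 and Dnajb11, were not called, with a median log2 fold change of 0.42 beside a median of 0.00 over all genes. The largest rises were those of Sdf2l1, a partner of the chaperone BiP (log2 fold change 0.92 ± 0.24 SE, adjusted p = 0.00406), and of Creld2, an ER protein of the folding machinery (0.80 ± 0.20, adjusted p = 0.00275). Hspa5 (chromosome 2, 34771970 to 34777547, GRCm38) encodes BiP, the most abundant Hsp70 of the ER and the protein that holds the sensors inactive. Its normalized counts were 18641, 15049, 20295 and 19995 in repeat peptide cells of experiments A, B, C and D. In single peptide cells they were 11273, 9035, 15653, 12422 and 8366 in experiments A, B, C, D and F. The groups overlapped only through the library of experiment C, and Hspa5 rose by 0.70 ± 0.17 on the log2 scale (1.63-fold, adjusted p = 0.00216). Hsp90b1, Calr, Canx, Pdia3, Pdia6 and Manf also rose, by 0.30 to 0.68. Of these Canx, a lectin chaperone, had the smallest rise (0.30, adjusted p = 0.0363). Its call was kept in 3 of the 9 fits that left out a library, lost without the DMSO library of experiment A, C or D in repeat or A, B or F in single peptide cells, and its value was 0.10 (adjusted p = 0.547) when effective transcript length was allowed for.

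Both chaperones that fell are J-domain cochaperones of BiP, whereas Dnajb11, of the same family, was at 0.21 ± 0.10 and was not called. Dnajc3 was at 3367 to 3969 normalized counts in the 4 repeat peptide libraries and 4334 to 5133 in the 5 single peptide libraries, with no overlap (log2 fold change -0.35 ± 0.08, adjusted p = 0.00072). Dnajb9, a classical target of IRE1 and XBP1 that represses IRE1, was at 265 to 358 and 341 to 496 (-0.48 ± 0.18, adjusted p = 0.0328), and this call was lost when any of 5 libraries was left out. The chaperone promoters that hold the ER stress response element therefore included 6 genes that rose and 1, Dnajc3, that fell. Of the 5 without it, Sdf2l1 and Pdia3 rose, Dnajb9 fell and Pdia4 and Dnajb11 were not called.

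In ER-associated degradation 1 of 3 genes was called. Edem1, which delivers misfolded glycoproteins to degradation, fell by 0.33 ± 0.12 (adjusted p = 0.0293), from 7356 to 10328 normalized counts in single peptide cells to 6937 to 7343 in repeat peptide cells. Its call was lost in 6 of the 9 fits that left out a library, without experiment B, C or D in repeat or A, B or F in single peptide cells. Herpud1 and Sel1l, both part of the ubiquitin ligase complex in the ER membrane, had log2 fold changes of 0.01 and 0.01, with 95% intervals of -0.16 to 0.18 and -0.24 to 0.27. Among the sensors and XBP1, 2 of 4 rose. Eif2ak3, the PERK kinase, rose by 0.78 ± 0.20 (adjusted p = 0.00262), while Ern1, the IRE1 sensor, was at -0.07 ± 0.24.

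Xbp1 (chromosome 11, 5520659 to 5525893) encodes the transcription factor made active by IRE1. It had 2961, 2457, 2895 and 2818 normalized counts in repeat peptide cells of experiments A to D with DMSO. The single peptide libraries of experiments A, B, C, D and F had 1326, 1054, 1187, 1397 and 1610. The groups were well apart, and Xbp1 rose by 1.08 ± 0.13 (2.12-fold, adjusted p = 2.46e-06).

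**Figure D2:**
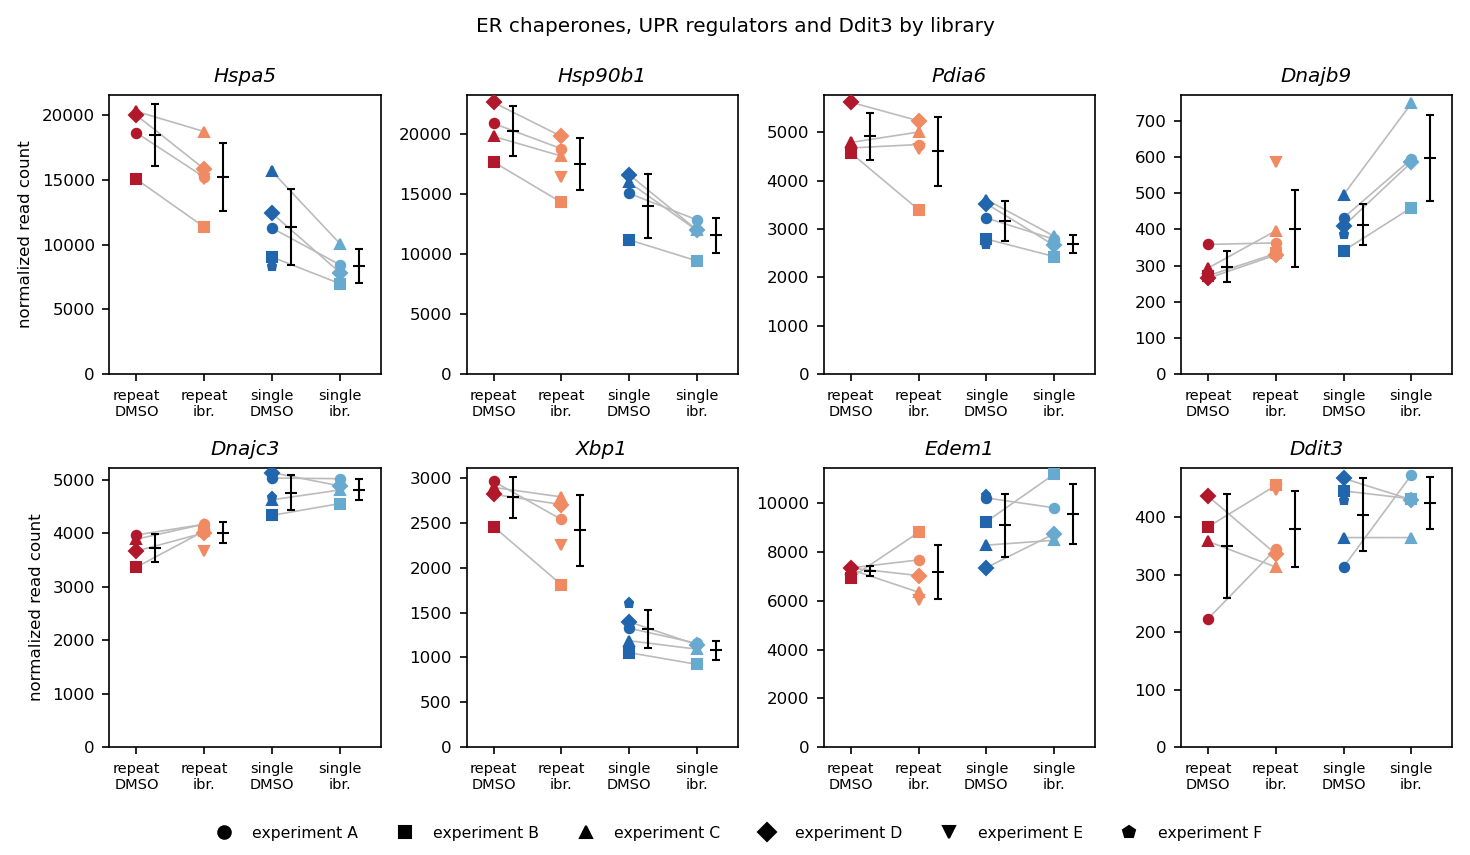
Normalized read counts (y axis, from 0) of 8 genes in each of the 18 libraries by group (x axis; ibr., ibrutinib), with symbols for experiments, grey lines joining DMSO and ibrutinib libraries of an experiment, and the group mean and SD beside the points. Xbp1 in repeat peptide cells with DMSO lies above all single peptide libraries, Dnajc3 and Edem1 lie below the single peptide DMSO libraries, and Ddit3 overlaps in all groups.

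The integrated stress response list held the largest called rise, that of Atf3, and the largest fall, that of Trib3. Of 9 tested genes 4 rose (Atf4, Atf3, Sesn2 and Ddit4), 1 fell (Trib3) and 4 were not called (Atf5, Ddit3, Ppp1r15a and Chac1, the last for its low count). The median log2 fold change was 0.77, or 0.58 without Chac1. Atf4 (chromosome 15, 80255184 to 80257541), the transcription factor at the centre of the response, had 4822, 4041, 6694 and 6089 normalized counts in repeat peptide cells of experiments A to D. In single peptide cells its counts were 2932, 3260, 3479, 3018 and 3190 in experiments A, B, C, D and F. Every repeat library was above every single library, and the rise was 0.77 ± 0.14 (1.70-fold, adjusted p = 0.00012).

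Atf3 (chromosome 1, 191170296 to 191218039), a stress-induced repressor of the same protein family, was nearly silent after single stimulation. Its normalized counts were 288, 256, 761 and 876 in repeat peptide cells of experiments A to D and 29.6, 2.16, 11.5, 6.48 and 20.4 in single peptide cells of experiments A, B, C, D and F. The fitted rise was 5.29 ± 0.60 on the log2 scale (39.2-fold, adjusted p = 1.19e-06). Sesn2 (chromosome 4, 132492032 to 132510501) encodes Sestrin 2, a leucine-binding inhibitor of the growth kinase mTORC1. It had 532, 912, 837 and 1027 against 317, 431, 435, 409 and 302 normalized counts in the same libraries, a rise of 1.13 ± 0.18 (adjusted p = 3.93e-05).

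Ddit3 (chromosome 10, 127290774 to 127296288), the CHOP factor of terminal ER stress, was not called. Its counts were 223, 383, 358 and 437 in repeat peptide cells and 313, 446, 365, 467 and 429 in single peptide cells, overlapping throughout (-0.21 ± 0.18, 95% interval -0.58 to 0.17, adjusted p = 0.348). Trib3, a pseudokinase induced by ATF4 and CHOP that restrains both, went the other way from Atf4. It was at 104, 181, 210 and 314 in repeat peptide cells and 457, 739, 479, 444 and 432 in single peptide cells, so that it fell by 1.33 ± 0.23 on the log2 scale (adjusted p = 0.000116).

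Chac1, which degrades glutathione, and Nupr1, a small stress-induced chromatin protein, were seen almost only in repeat peptide cells. Chac1 had 22.1, 28.6, 39.7 and 86.5 normalized counts in repeat peptide cells of experiments A to D and 0 in 4 of the 5 single peptide libraries with DMSO, with 3.70 in that of experiment D. Nupr1 had 12.8, 7.90, 15.7 and 90.7 in the same repeat libraries and at most 1.28 in any single peptide library.

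All 9 ATF4 amino acid genes had a positive log2 fold change and 5 were called higher, with a median of 0.77, or 0.75 without Cth. The largest called rises were those of Asns, and of Pck2, the mitochondrial enzyme that feeds intermediates into serine and glycerol synthesis (1.86 ± 0.20, adjusted p = 6.9e-07). Asns (chromosome 6, 7675169 to 7693254) had 1305, 1083, 1670 and 1842 normalized counts in repeat peptide cells of experiments A to D. Its counts were 170, 310, 431, 304 and 372 in single peptide cells of experiments A, B, C, D and F. The groups were far apart, with a rise of 2.22 ± 0.26 (4.65-fold, adjusted p = 2e-06).

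Of the serine synthesis genes, Psat1, the second enzyme of the path, rose by 1.11 ± 0.18 and Phgdh by 0.73 ± 0.17, whereas Psph, the last enzyme, was at 0.04 ± 0.17. Of the mitochondrial folate enzymes Mthfd2 rose by 0.77 ± 0.12 and Shmt2 was at 0.10 ± 0.11, and Aldh18a1, which starts proline synthesis, was at 0.18 ± 0.10. Cth, which makes cysteine from cystathionine, had 93.1, 103, 170.0 and 381 normalized counts in repeat peptide cells of experiments A to D against at most 2.55 in every single peptide library with DMSO.

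Ibrutinib was compared with DMSO in repeat peptide cells to ask which of these changes the inhibitor moved. No gene of the 38 was called higher and 4 (10.5%) were called lower, Atf4, Atf3, Sesn2 and Mthfd2, against 5.92% of all genes, 4.01% higher and 1.92% lower. All 4 moved down in each of experiments A to D. DESeq2 called the same 4 genes, against 9.51% of all genes by that test. Blocking on the experiment gave 7 calls, adding Hspa5 (log2 fold change -0.29, adjusted p = 0.0230), Asns (-0.65, adjusted p = 0.0258) and Psat1 (-0.33, adjusted p = 0.0405), against 13.8% of all genes. The number of calls depended on particular control libraries, for these genes and over all genes. Without the DMSO library of experiment C 1 call was left, against 3.18% of all genes. Without that of experiment D 0 were left, against 2.86%. The groups did not overlap for 4 of the 38 genes, and for 10.1% of all genes tested.

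Atf4 was lower with ibrutinib. The ibrutinib libraries of experiments A, B, C, D and E had 3069, 2883, 4213, 3598 and 3983 normalized counts, beside 4822, 4041, 6694 and 6089 with DMSO in experiments A to D. The groups overlapped through the ibrutinib library of experiment C, but within each experiment the ibrutinib library was the lower one, by 0.49 to 0.76 on the log2 scale. The fitted log2 fold change was -0.61 ± 0.14 (1.52-fold, adjusted p = 0.0103). Without the DMSO library of experiment C or D the adjusted p was 0.0580 or 0.0569.

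Atf3 had 78.8, 45.5, 201 and 204 normalized counts with ibrutinib in experiments A to D and 117 in experiment E, below all 4 DMSO libraries (256 to 876). Its log2 fold change was the largest of the called genes, -2.07 ± 0.50 (4.19-fold, adjusted p = 0.0178), although its ibrutinib level was still above that of every single peptide library. The call was lost without the DMSO library of experiment C (adjusted p = 0.0765) or D (0.0975) or the ibrutinib library of experiment A (0.0551).

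Sesn2 had 462, 534, 477, 557 and 345 normalized counts with ibrutinib in experiments A to E. These overlapped the DMSO libraries through experiment A, where the DMSO library had only 532, and the log2 fold change was -0.80 ± 0.18 (1.74-fold, adjusted p = 0.00982). The adjusted p was 0.0587 without the DMSO library of experiment D and stayed below 0.05 when any other library was left out.

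Mthfd2 (chromosome 6, 83305691 to 83325908), a mitochondrial enzyme of the folate cycle that supplies carbon units for nucleotide synthesis, was the only amino acid gene called without the block. Its ibrutinib libraries had 2513, 1909, 2664, 2872 and 2146 normalized counts in experiments A to E, and its DMSO libraries 2881, 2938, 3422 and 3735. The groups were just apart, with a log2 fold change of -0.42 ± 0.11 (1.34-fold, adjusted p = 0.0340). This was the least stable of the 4 calls, kept in 4 of the 9 fits that left out a library.

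**Figure D3:**
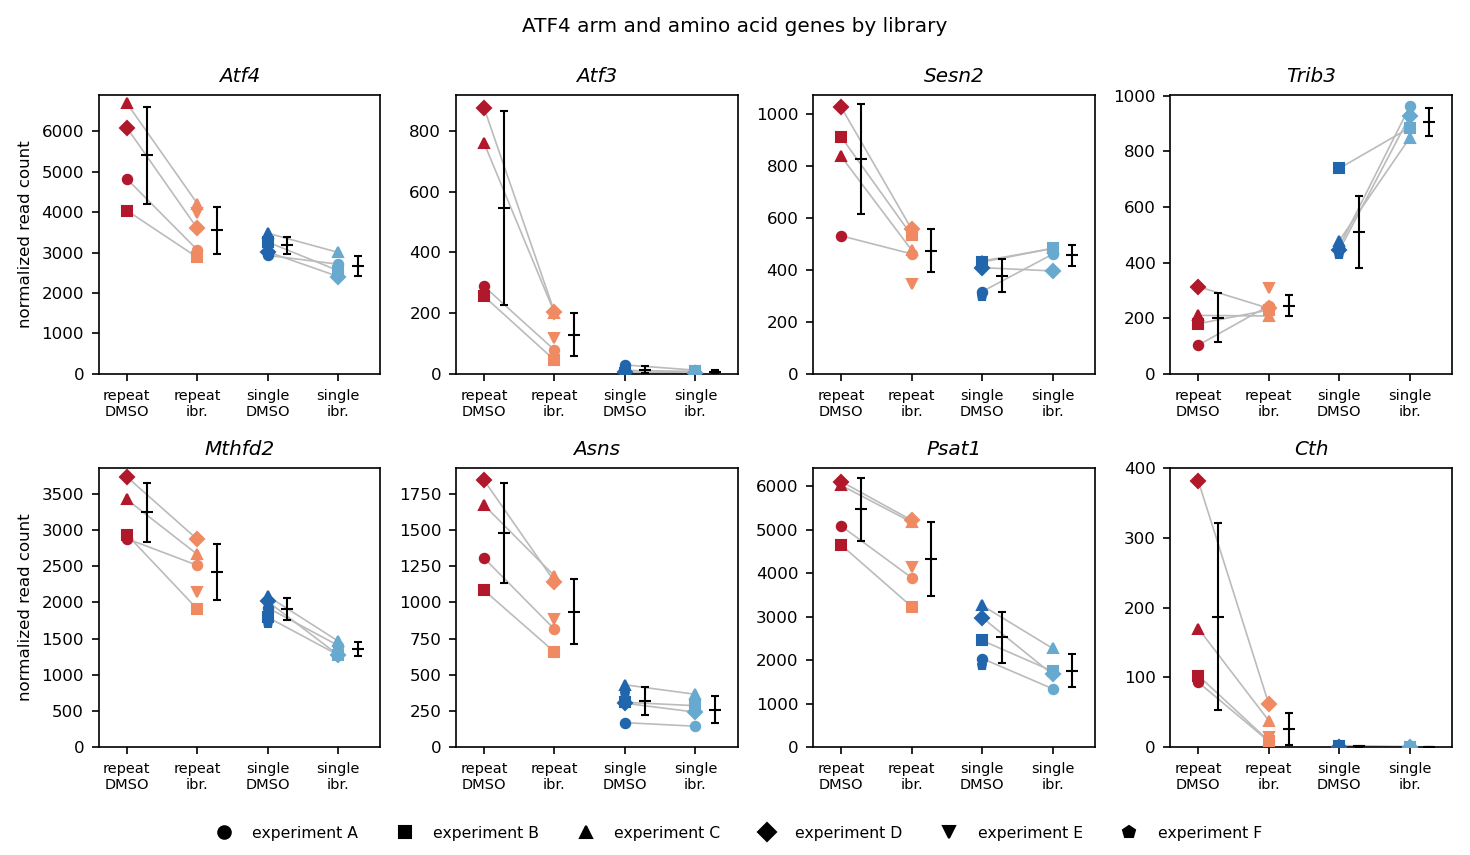
Normalized read counts (y axis, from 0) of 8 ATF4-related genes in each of the 18 libraries by group (x axis; ibr., ibrutinib), drawn with symbols for experiments, grey lines within an experiment, and the group mean and SD beside the points. Atf4, Atf3, Sesn2, Mthfd2, Asns, Psat1 and Cth are highest in repeat peptide cells with DMSO and fall along the grey lines to ibrutinib in repeat peptide cells. Trib3 is lowest in repeat peptide cells and highest in single peptide cells with ibrutinib.

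Without the block the other amino acid genes were not called, and most had negative values. Asns had 814, 657, 1182, 1143 and 883 normalized counts in experiments A to E beside 1083 to 1842 with DMSO (-0.66 ± 0.26, adjusted p = 0.137). The log2 differences within experiments A, B, C and D were -0.68, -0.72, -0.50 and -0.69, close to each other although the libraries of the 2 groups overlapped. Pck2 was at -0.43 ± 0.20 (adjusted p = 0.213), Psat1 at -0.34 ± 0.18 (adjusted p = 0.283) and Phgdh at -0.14 ± 0.17. Over the 9 genes the median was -0.34, or -0.25 without Cth, beside 0.00 over all genes, and 8 of the 9 values were negative.

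Cth showed the widest separation of the list. With ibrutinib it had 8.49, 9.10, 38.0, 61.9 and 14.3 normalized counts in experiments A to E, all below the DMSO libraries (93.1 to 381). The fitted log2 fold change was -2.78 ± 0.59 (adjusted p = 0.00791), and the gene was kept from a call only by its mean count of 49.2. Chac1 did not pass the test with 4.55 to 21.7 normalized counts against 22.1 to 86.5 (adjusted p = 0.0658), and Nupr1 had between 0 and 5.58.

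Of the 9 tested genes of the integrated stress response, 3 fell and the others were not called. Ddit4, an inhibitor of mTORC1, was at -0.67 ± 0.30 (adjusted p = 0.192). Ddit3 was at 0.11 ± 0.18 (95% interval -0.26 to 0.49), with 344, 455, 313, 336 and 447 normalized counts with ibrutinib in experiments A to E. It was higher with ibrutinib in experiments A and B and lower in C and D. Trib3 was at 0.28 ± 0.23, Ppp1r15a, which reverses eIF2α phosphorylation, at 0.18 ± 0.34, and Atf5 at -0.28 ± 0.20.

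Without the block no ER chaperone was called with ibrutinib in repeat peptide cells by edgeR or by DESeq2, and 1 of the 13 had an unadjusted p under 0.05, against 21.6% of all genes. That gene was Dnajb9 (log2 fold change 0.43 ± 0.18, adjusted p = 0.164). Hspa5 had 15209, 11350, 18736, 15846 and 15107 normalized counts with ibrutinib in experiments A to E beside 15049 to 20295 with DMSO (-0.28 ± 0.17, 95% interval -0.64 to 0.08, adjusted p = 0.368), and was called with the block (-0.29, adjusted p = 0.0230). It was lower with ibrutinib in each of experiments A to D, by 0.12 to 0.41. The other chaperones lay between -0.27 and 0.11, and the median of the 13 was -0.10.

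None of the 3 degradation genes nor of the 4 sensor genes was called by either tool, and none of these 7 had an unadjusted p under 0.05. Xbp1 had 2537, 1810, 2788, 2704 and 2251 normalized counts with ibrutinib in experiments A to E (-0.20 ± 0.13, 95% interval -0.48 to 0.07, adjusted p = 0.393). Its ibrutinib libraries all stayed above the highest single peptide library with DMSO, at 1610.

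In single peptide cells ibrutinib was compared with DMSO to see whether the same genes moved without continued antigen. Of the 38 genes 1, Trib3, was called higher and 1, Mthfd2, lower (5.26% together), against 3.04% of all genes, 0.351% higher and 2.69% lower. DESeq2 called the same 2 genes, against 4.99% of all genes by that test. Blocking on the experiment gave 10 calls, against 9.09% of all genes. The 8 that were added were the chaperones Hspa5 (log2 fold change -0.52, adjusted p = 0.000457), Hsp90b1, Calr, Canx, Pdia6 and Creld2 (-0.28 to -0.46), with Psat1 (-0.60, adjusted p = 0.00131) lower and Dnajb9 (0.50, adjusted p = 0.0106) higher. The groups did not overlap for 3 of the 38 genes, Canx, Trib3 and Mthfd2, and for 6.39% of all genes tested.

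Trib3 had 961, 885, 849 and 926 normalized counts with ibrutinib in experiments A to D, all above the DMSO libraries (432 to 739). It rose by 0.83 ± 0.22 (1.77-fold, adjusted p = 0.0489), a call that was lost in 8 of the 9 fits that left out a library. Mthfd2 had 1405, 1274, 1465 and 1275 with ibrutinib in experiments A to D against 1927, 1796, 2088, 2013 and 1710 with DMSO in experiments A, B, C, D and F. Its log2 fold change was -0.49 ± 0.12 (1.41-fold, adjusted p = 0.0257), and this call was lost in 5 of 9 such fits, without the DMSO libraries of experiments C or D or the ibrutinib libraries of experiments A, B or D.

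Hspa5 had 8442, 6981, 10079 and 7836 normalized counts with ibrutinib in experiments A to D against 8366 to 15653 with DMSO (-0.45 ± 0.17, 95% interval -0.81 to -0.08, adjusted p = 0.233). By edgeR without the block no chaperone was called, 4 of 13 had an unadjusted p under 0.05, against 13.5% of all genes, and DESeq2 called 0. Atf4 had 2713, 2554, 3006 and 2408 (-0.25 ± 0.14, adjusted p = 0.460). Asns had 145, 287, 365 and 242 (-0.29 ± 0.27, adjusted p = 0.743), and Xbp1 1158, 924, 1092 and 1141 (-0.29 ± 0.13, adjusted p = 0.349). Ddit3, at 473, 432, 364 and 430, was at 0.07 ± 0.18, and Atf3, at 12.3, 8.43, 8.35 and 2.05, at -0.80 ± 0.71. Over the 13 chaperones the median was -0.24 and over the 9 amino acid genes -0.27, or -0.20 without Cth.

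The difference between the ibrutinib effects, in repeat minus single peptide cells, was tested as an interaction. Only Sesn2 of the 38 genes was called, in the lower direction, against 1.26% of all genes, 1.04% higher and 0.212% lower. Sesn2 had 461, 483, 483 and 396 normalized counts with ibrutinib in single peptide cells of experiments A to D, near or above their DMSO libraries (0.27 ± 0.18, adjusted p = 0.582). Its ibrutinib effect was therefore lower in repeat than in single peptide cells by -1.07 ± 0.25 on the log2 scale (adjusted p = 0.0412). The difference was negative in each of experiments A to D (-0.74 to -0.96), and with the block it was -0.90 (adjusted p = 0.0132). The call was lost in 14 of the 18 fits that left out a library, with adjusted p between 0.0504 and 0.112.

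The other genes called in repeat peptide cells were not shown to respond differently from single peptide cells. The difference was -0.36 ± 0.19 for Atf4 (95% interval -0.76 to 0.04, adjusted p = 0.514), -1.27 ± 0.89 for Atf3 (adjusted p = 0.678) and 0.07 ± 0.16 for Mthfd2 (95% interval -0.27 to 0.41, adjusted p = 0.938). For Hspa5 it was 0.17 ± 0.25, for Xbp1 0.08 ± 0.19, for Ddit3 0.04 ± 0.25 and for Asns -0.37 ± 0.37. No chaperone or amino acid gene was called for the difference by edgeR or DESeq2, and none of these 22 had an unadjusted p under 0.05, against 11.4% of all genes.

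Chaperones and amino acid genes were then set side by side by their medians, as a description with no test. In repeat against single peptide cells the chaperone median (0.42) was below the amino acid median (0.77) by 0.34 on the log2 scale, with values of -0.28, -0.16, -0.53 and -0.51 for chaperones minus amino acid genes within experiments A, B, C and D. With ibrutinib in repeat peptide cells the order was the opposite, since the amino acid genes had the more negative median (-0.34 against -0.10). The chaperone median exceeded it by 0.24, or by 0.16 without Cth, and by 0.14, 0.23, 0.19 and 0.19 within experiments A, B, C and D. In single peptide cells the medians were close, 0.02 apart, with -0.05, 0.00, -0.13 and -0.11 within the experiments. For the difference between the ibrutinib effects, chaperones minus amino acid genes was 0.14. Within experiments A, B, C and D it was 0.02, -0.01, 0.46 and 0.32, so it varied between experiments. The DMSO libraries of repeat peptide cells enter both of the first comparisons, so these are not independent of each other.

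**Figure D4:**
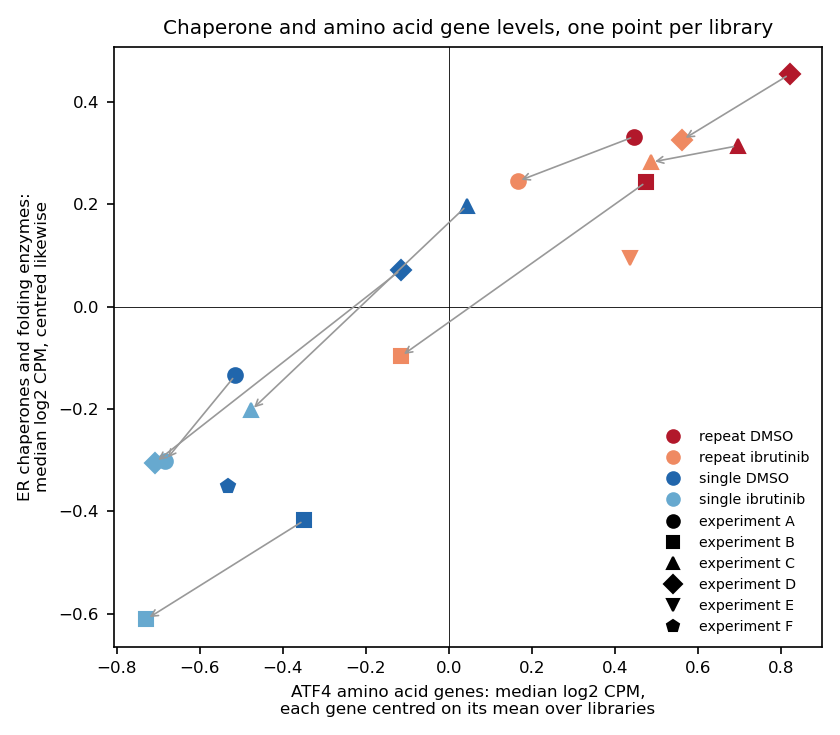
Each point is 1 of the 18 libraries, placed by the median log2 CPM (normalized counts per library, on a log scale) of the 9 ATF4 amino acid genes (x axis) and of the 13 chaperones (y axis), each gene centred on its mean over libraries; colours give groups, symbols experiments, and arrows run from DMSO to ibrutinib within an experiment. Repeat peptide libraries with DMSO lie between 0.45 and 0.82 on the x axis, overlapping those with ibrutinib (-0.12 to 0.56), and all 8 arrows point down and to the left.

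The levels by library give the same order of groups on both axes. The centred median of the amino acid genes was between 0.45 and 0.82 in repeat peptide cells with DMSO and between -0.12 and 0.56 with ibrutinib. In single peptide cells it was between -0.53 and 0.04 with DMSO and between -0.73 and -0.48 with ibrutinib. For the chaperones the ranges were 0.24 to 0.45, -0.10 to 0.33, -0.42 to 0.20 and -0.61 to -0.20 in the same order, with overlap between the repeat groups. Experiment B had the lowest chaperone median of experiments A to D in every group.

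Further genes of the same pathways were taken from 5 other lists. Their calls are from fits without the experiment block, and none with the block is given. Of 35 genes for ER folding, glycosylation and translocation 18 rose and 0 fell in repeat against single peptide cells, where 22.8% of all genes were called higher and 24.2% lower, the largest called rise being that of Ssr2, a subunit of the translocon-associated complex (0.92 ± 0.16, adjusted p = 0.000106). With ibrutinib in repeat peptide cells edgeR called 0 of the 35, and 10 had an unadjusted p under 0.05 (21.6% of all genes did). DESeq2 called 2 of the 35, against 9.51% of all genes. Of 19 further genes of degradation and unfolded protein signalling 3 rose, led by the transcription factor Creb3l2 (1.03 ± 0.18), and 2 fell, led by its relative Creb3 (-0.39 ± 0.14). With ibrutinib in repeat peptide cells edgeR called 0 of these 19, with 3 at an unadjusted p under 0.05, and DESeq2 called 0. In repeat against single peptide cells 38 of the 42 called genes of the 5 lists moved the same way within each of experiments A to D, the exceptions being Ero1l and Slc7a1 in experiment B and Fkbp2 and Prkcsh in experiment C.

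Genes of amino acid supply were called in both of these comparisons. Of 8 tested amino acid transporters Slc7a5, Slc7a1 and Slc1a4 rose with repeat stimulation, where 22.8% of all genes were called higher and 24.2% lower. The same 3 fell with ibrutinib in repeat peptide cells, where 1.92% of all genes were called lower. Slc1a4, which carries serine, alanine and cysteine, showed the largest change in both (4.88 ± 0.47, adjusted p = 1.53e-07, and -1.81 ± 0.39, adjusted p = 0.00918). Of 12 cytosolic aminoacyl-tRNA synthetases 8 rose and 1, Wars, fell with repeat stimulation (-0.52 ± 0.12), and Aars, Cars, Iars and Yars, all among the 8, fell with ibrutinib. Cars, for cysteine, had the largest change in both (1.12 ± 0.15 and -0.71 ± 0.15, adjusted p = 0.00893). Of 15 tested other genes of the integrated stress response 6 rose, led by the aminotransferase Gpt2 (3.67 ± 0.44), and 1 fell, the secreted glycoprotein Stc2 (-1.07 ± 0.27). With ibrutinib in repeat peptide cells edgeR called 1 of the 15, Eif2ak2, the kinase PKR (-0.57 ± 0.14, adjusted p = 0.0181). An unadjusted p under 0.05 was found for 6 of the 15, against 21.6% of all genes. DESeq2 called 3, against 9.51% of all genes.

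In single peptide cells with ibrutinib 3 genes of these lists fell, where 2.69% of all genes were called lower, named here after their values were seen. They were Fkbp2, a folding enzyme of the ER (-0.85 ± 0.21, adjusted p = 0.0359), Wars, for tryptophan (-0.83 ± 0.13, adjusted p = 0.00185), and Eif2ak2 (-0.71 ± 0.14, adjusted p = 0.0104). Of the transporters edgeR and DESeq2 called 0 there, with 1 of 8 at an unadjusted p under 0.05, against 13.5% of all genes. Wars was also the only gene of the 5 lists called for the difference between the ibrutinib effects (1.10 ± 0.18, adjusted p = 0.00228), its effect being 0.27 ± 0.12 in repeat peptide cells.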

How the data were processed

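RNA was sequenced paired-end from oligo-dT selected, strand-specific libraries. The authors trimmed the reads with Trim Galore, aligned them with STAR and estimated expected counts and TPM per gene with RSEM 1.3.1 on GRCm38, and deposited these estimated counts and TPM values, with effective lengths, for each library. Here the expected counts were rounded, and protein-coding and lncRNA genes of GENCODE M21 (27903 genes, 98.5% of counts) were kept. Hsp90b1 and Phgdh had fractional counts, shared in part with similar sequence. One model of the 4 groups was fitted with edgeR 4.0.16 (filterByExpr, TMM, robust quasi-likelihood) in R 4.3.3, and p-values were adjusted by the Benjamini-Hochberg method over 12255 genes. The thresholds were those of the study's methods, but they were applied to unshrunken fold changes, whereas the study shrank its own first. The steps were tested on simulated data.

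Members and lists were chosen with earlier results of these data known. Described in full were Hspa5, Xbp1, Atf4, Ddit3 and Asns and every gene called with ibrutinib in repeat peptide cells or in the interaction; in other comparisons the 2 called genes per role with the largest change in each direction were named, and in other lists the called genes with the largest rise and fall. Same-experiment libraries of different groups deviated together in all 24 pairs (correlation of deviations 0.16 to 0.494, median 0.325), against a median of -0.0765 for the 97 other pairs. The experiments, as read from the labels, were therefore taken to pair the libraries. The fit with this block is given where it changes a call. DESeq2 1.42.0 was an alternative. No libraries of a group agreed within sampling noise (over 32 pairs, chi-square divided by its degrees of freedom was 28.2 to 219).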

Additional observations from a re-analysis of the deposited data

Results flagged for a closer look

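The ibrutinib effect on Sesn2 differed between repeat and single peptide cells by -1.07 on the log2 scale in the test of the difference itself, and that on Wars, from the list of tRNA synthetases, by 1.10. In 13 of 156 groups of 4 or 5 libraries (39 genes in 4 groups) 1 library stood apart from the others by Dixon's criterion on normalized counts, where chance gives about 1 in 20 groups.

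In experiment B, Canx (11345, others 15113 to 15819) and Edem1 (6937, others 7278 to 7343) were low in repeat peptide cells with DMSO, Pdia4 (3270, others 3815 to 3924) was low in single peptide cells with ibrutinib, and Ern1 (577, others 261 to 351) in repeat peptide cells with ibrutinib and Trib3 (739, others 432 to 479) in single peptide cells with DMSO were high. In experiment E, Dnajb9 (586, others 329 to 396) and Psph (1757, others 984 to 1172) were high in repeat peptide cells with ibrutinib. In experiment C, Ppp1r15a was high in single peptide cells with DMSO (1639, others 583 to 824) and with ibrutinib (1733, others 835 to 925). Nupr1 was high in repeat peptide cells with DMSO of experiment D (90.7, others 7.90 to 15.7). The remaining values lay near 0, with 1.28 normalized counts of Nupr1 in single peptide cells of experiment F, 3.70 of Chac1 in those of experiment D with DMSO and 2.81 of Chac1 in those of experiment B with ibrutinib.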

How the results depend on the processing

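The 24 calls in repeat against single peptide cells varied between 20 and 26 over all alternatives except a stricter fold (absolute log2 above 1), which left 7. In repeat peptide cells the 4 ibrutinib calls became 7 with the experiment as replicate block and 1 with the stricter fold, and ranged from 0 (without the DMSO library of experiment D) to 5 (without the ibrutinib library of experiment C) when a library was left out; without the DMSO library of experiment C there was 1. Of the 4, Atf4 was lost with only the compared groups (adjusted p = 0.0719), and Mthfd2 was lost there (0.118) and without the filter on low counts (0.0677). In single peptide cells the 2 calls became 10 with the replicate block, 1 with DESeq2 size factors or with all gene types, 0 with the stricter fold, and ranged from 0 to 2 when a library was left out: 1 without the DMSO libraries of experiments A or F or the ibrutinib library of C, and 0 without the DMSO libraries of C or D or the ibrutinib libraries of A, B or D. The 1 call for the difference became 0 without the filter on low counts and ranged from 0 to 1 when a library was left out. The block changed no other call. Over all genes the calls rose with the block to 1694 in repeat and 1114 in single peptide cells and 679 for the difference, and with DESeq2's own test to 1165, 612 and 350, beside 726, 373 and 154. With only the compared groups they were 464 and 181, and with the stricter fold 237, 202, 114 and, for repeat against single, 1994. For ibrutinib in repeat peptide cells they were 393 without the DMSO library of experiment C and 354 without that of experiment D. The chaperone median minus the amino acid median ranged from 0.173 to 0.284 in repeat peptide cells when a library was left out. In single peptide cells it ranged from -0.133 to 0.0930, with -0.0628 under the block and -0.0397 with only the compared groups, so its sign there was not stable. Ddit3 changed sign: from -0.0490 to 0.248 in repeat and -0.00684 to 0.130 in single peptide cells when a library was left out, and from -0.121 to 0.190 for the difference, with -0.0613 under the block. The cause of these shifts was not tested. Chac1, Nupr1 and Cth lay near the floor of the counts, with 3 counts or fewer in every library of at least 1 group.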
